A study of Mus musculus with 4 samples.

Results

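The plasmablasts and plasma cells of mouse draining lymph nodes were examined in single-cell RNA sequencing data. Members were chosen by these measured counts, as cells with at least 5 unique molecular identifiers (UMIs, each a counted RNA molecule) of Jchain, at least 1 of Xbp1 and none of Siglech or of Cd3d, Cd3e and Cd3g, among cells with at least 200 genes and under 10% mitochondrial UMIs. The rule found 108 members among 33310 filtered cells, which were 7 in Control 1, 11 in Control 2, 37 in EV 1 and 53 in EV 2. For comparison, 14081 other B cells were used, with a Cd79a UMI, fewer than 5 Jchain UMIs and no Siglech or CD3 UMI. The 4 libraries came from wildtype C57BL/6 mice. The 2 EV libraries came from mice injected under the skin with 100 µg in all of extracellular vesicles (EVs). These vesicles were from human induced pluripotent stem cells (iPSCs). The 2 Control libraries came from mice injected with buffered saline. The study's design text and methods give day 5 as the harvest, whereas the sample labels give 24 hours and no treatment for the controls. No cells were enriched or sorted, and the number of mice behind a library was not given in the sources used here. The libraries held 50749656, 58100433, 68116085 and 70418672 UMIs in that order of libraries, and the members together held 78981, 143745, 1229828 and 1585276 of them.

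A B cell that meets antigen can divide in a germinal centre, where its antibody genes are changed and cells are selected, and can then turn into a plasmablast and a plasma cell. That last step is driven by the transcription factors Irf4, Blimp-1 (Prdm1) and Xbp1 and switches off the B cell factors Pax5 and Bcl6. The secreting cell fills with immunoglobulin mRNA, enlarges its endoplasmic reticulum (ER) and displays syndecan-1 (Sdc1), while Jchain encodes the small chain that joins IgM and IgA into polymers. Xbp1 and ATF6 act on the promoters of ER chaperone genes, many of which carry an ER stress response element.

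That element was looked for as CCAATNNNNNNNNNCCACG on both strands of the promoters that RefSeq gives for mouse genes (build GRCm38.p6, 300 bases a promoter), because ER chaperone genes differed among the members, as given below. It was found in 39 of 32851 promoters, or 0.119%. Of the 24 genes in the list for ER folding and the unfolded protein response, 19 had a promoter in the table and 7 carried the element, which were Calr, Canx, Dnajc3, Hsp90b1, Hspa5, Pdia6 and Syvn1. Of 18 genes of the plasma cell list with a promoter, Creld2 and Derl3 carried it, and none of 19 ER translocation genes or 16 mature B cell genes did. The windows below run 5′ to 3′ on the gene's own strand, with the element in capitals. Where the capitals begin with CGTGG the element lies on the opposite strand. Hsp90b1 carried a further element, on the opposite strand, whose window (chr10:86705513-86705571) is not printed. A match of letters is a description of the sequence, not a bound site.
Hspa5 (chr2:34772005-34772063, plus strand): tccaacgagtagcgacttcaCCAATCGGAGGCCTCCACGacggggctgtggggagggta
Hsp90b1 (chr10:86705618-86705676, minus strand): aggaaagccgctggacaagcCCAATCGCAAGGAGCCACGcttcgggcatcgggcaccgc
Pdia6 (chr12:17266471-17266529, plus strand): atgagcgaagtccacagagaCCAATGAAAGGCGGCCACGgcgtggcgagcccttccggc
Dnajc3 (chr14:118937807-118937865, plus strand): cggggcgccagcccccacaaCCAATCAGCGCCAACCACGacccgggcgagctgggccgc
Calr (chr8:84847055-84847113, minus strand): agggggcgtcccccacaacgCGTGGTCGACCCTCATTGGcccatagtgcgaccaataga
Creld2 (chr15:88819500-88819558, plus strand): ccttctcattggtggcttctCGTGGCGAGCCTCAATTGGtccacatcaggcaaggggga
Derl3 (chr10:75893222-75893280, plus strand): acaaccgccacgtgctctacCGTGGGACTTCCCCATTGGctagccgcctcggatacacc

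Jchain (build GRCm38, chromosome 5, 88519809 to 88527891) chose the members, so its values are given as a description. At least 5 Jchain UMIs were held by 171 filtered cells, which were 10 in Control 1, 19 in Control 2, 64 in EV 1 and 78 in EV 2. Of these, 19 were left out for a CD3 UMI, 1 for Siglech and 43 for the lack of Xbp1. The median member held 70 Jchain UMIs in Control 1, 12 in Control 2, 20 in EV 1 and 20 in EV 2, within a range from 5 to 940. Just inside the threshold, with 5 or 6 Jchain UMIs, lay 12 members, and just outside it, with 3 or 4 and all else alike, lay 8 cells. A single Xbp1 UMI admitted 39 of the 108 members. In T cells, which should not make Jchain, a Jchain UMI was found in 0.224 to 0.434% of cells at median depths of 6478 to 8844 UMIs per cell, and at most 1 T cell of a library held 5 or more.

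The data went against the name for most members. Syndecan-1 RNA was detected in 13 of 108 members and Prdm1 in 7, and 14 had either, whereas Ms4a1, the B cell surface protein CD20, was detected in 92. Every member had a UMI of Mzb1, an ER protein of B cells and plasma cells. As a share of the cell's UMIs, Jchain fell into a high and a low range with little between them. The largest low value was 0.296%, and the smallest high values were 0.433% and 0.708%. A line was therefore drawn at 0.4% of UMIs after the values were seen, and a single member lay between 0.3 and 0.5%. This left 21 members in the high range, which were 5, 5, 4 and 7 in Control 1, Control 2, EV 1 and EV 2, and 87 in the low range, which were 2, 6, 33 and 46. These are ranges of a measured share and not cell types, and what differs between them is described with no test.

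**Figure D1:**
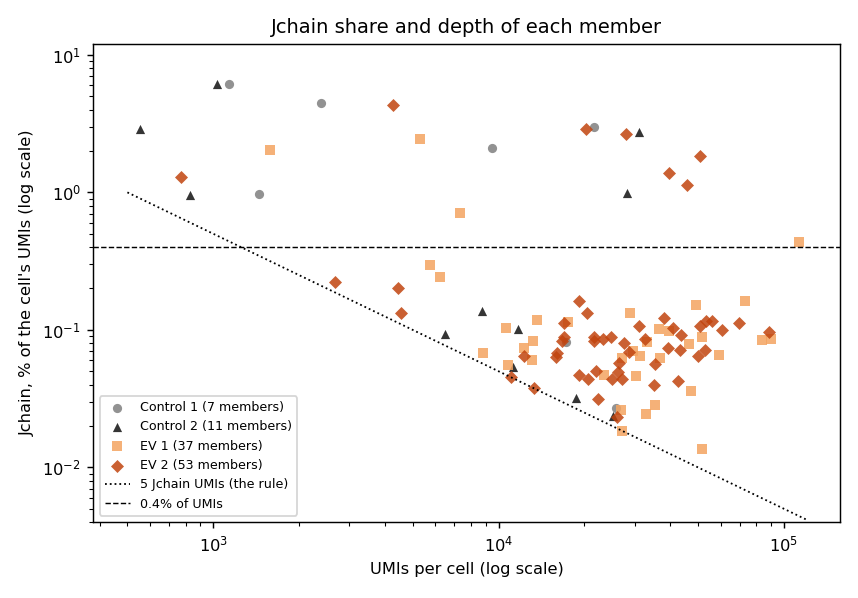
Each point is 1 member, with its UMIs on the x axis and Jchain as a percentage of those UMIs on the y axis, both on log scales. The dotted line marks 5 Jchain UMIs and the dashed line 0.4% of UMIs, above which lie 21 members of all 4 libraries, while the 87 below it are mostly from the EV libraries and deeply sequenced.

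The 21 members of the high range carried the genes of antibody secretion. Jchain made up 0.433 to 6.16% of their UMIs, with a median of 2.1%, and the kappa light chain gene Igkc a median of 17.3%. The heavy chain gene with the most UMIs reached 3083 in a single cell, with a median of 530. Sdc1 was detected in 12 of the 21 and Prdm1 in 7, and 8 had neither. These cells were uneven in depth, from 552 to 112854 UMIs, and 8 of them held fewer than 3000, so a UMI that was missing in the shallow cells is not a sign that the gene was silent. Pax5, Bcl6, S1pr2 and Rgs13 had no UMI in any of the 21 cells. Over their 413986 UMIs a count of 0 allows up to 3.

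The summed UMIs of each library showed the size of these differences, given as UMIs per 1000000 UMIs of the summed cells (CPM). The sums of the high range rest on few deep cells, with 21600 of 36029 UMIs in 1 cell of Control 1, 31176 and 28145 of 61730 in 2 cells of Control 2, 112854 of 127092 in 1 cell of EV 1, the one nearest the line at 0.433% Jchain, and at most 50705 of 189135 in a cell of EV 2. Prdm1 stood at 27.8, 130, 315 and 111 CPM in the high range of Control 1, Control 2, EV 1 and EV 2 and at 0 in the low range of each library. Sdc1 stood at 167, 130, 78.7 and 63.4 CPM in the high range, with 1 UMI in all 87 cells of the low range. Other B cells held at most 2.05 CPM of Prdm1 and 4.61 of Sdc1. The Prdm1 levels rest on few cells, with 1 UMI in Control 1 (95% interval 0.703 to 155 CPM), all 8 UMIs of Control 2 in 1 cell, all 40 of EV 1 in the cell with 112854 UMIs, and 21 UMIs in 4 cells of EV 2. In Control 1 the exact interval of the low range, at a count of 0, reached 85.9 CPM, and the ranges could not be told apart for Prdm1 at this depth. Irf4, a factor whose dose helps to set the switch to secretion, was also lower in the low range (7.25 to 23.3 CPM) than in other B cells (130 to 233), with 139 to 448 in the high range.

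The ER chaperones whose promoters are printed above differed in the same way. Hspa5, which encodes the chaperone BiP, stood at 1527, 956, 1794 and 3881 CPM in the high range of Control 1, Control 2, EV 1 and EV 2, with 190 of the 228 Hspa5 UMIs of EV 1 in its deepest cell. In the low range it stood at 69.8, 195, 278 and 279, which overlapped the 202 to 279 of other B cells. Hsp90b1, the ER chaperone GRP94, ranged from 3321 to 10707 CPM in the high range and from 61.0 to 243 in the low range. Creld2, an ER protein induced under folding stress, ranged from 292 to 862 against 0 to 32.2, and Derl3, which helps to remove misfolded proteins from the ER, from 62.9 to 389 against 0 to 9.98. Calnexin (Canx) and the ubiquitin ligase gene Syvn1 carry the element too but did not separate, since Canx was higher in the high range in 3 of 4 libraries and Syvn1 in 2.

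The lists showed how far the pattern reached. In all 4 libraries the high range lay above the low range for 19 of 22 genes of the plasma cell list, 18 of 24 of the ER folding list and 20 of 24 of the list for ER translocation and glycosylation. The low range lay above the high range in all 4 libraries for 20 of 22 genes of the mature B cell list, all 8 genes of the germinal centre list and 11 of 28 of the cell cycle list. Among all 9766 genes with at least 10 UMIs in the members, 5.29% lay higher in the high range in all 4 libraries and 23.4% lay higher in the low range. The plasma cell list contains Jchain and Xbp1, which chose the members, and its counts are not independent of the line drawn. The high range of a library is dominated by the deep cells given above, and a count over 4 libraries is to that extent one over those cells.

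**Figure D2:**
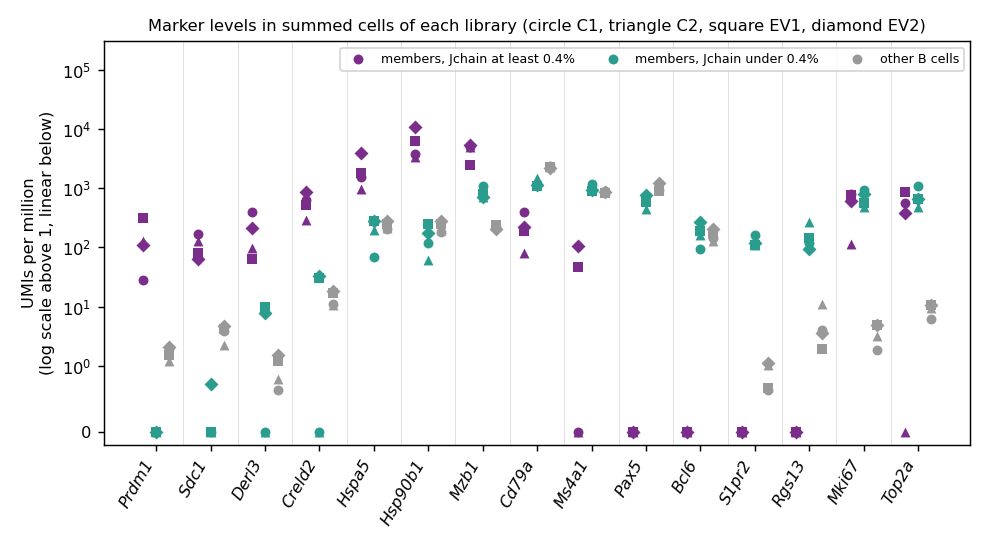
Each point is the level of 1 gene in the summed cells of 1 library, in CPM, on a scale that is logarithmic above 1 and linear below. Secretory genes (left) are highest in members with Jchain at or above 0.4% of UMIs, and B cell and germinal centre genes (centre) lie higher in members under 0.4% than in those at or above it, in all 4 libraries.

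The 87 members of the low range held germinal centre genes, some at far higher levels than other B cells. S1pr2, a receptor that keeps B cells in the germinal centre, was detected in 72 of them and stood at 108 to 163 CPM, against 0.624 to 1.12 in other B cells. Mef2b, a factor that acts on Bcl6, was detected in 78 and stood at 97.5 to 210 CPM, against 18.9 to 20.8. Bcl6 itself, the factor that maintains the germinal centre state, was detected in 72 but did not set the low range apart from other B cells, at 93.1, 159, 185 and 271 CPM in Control 1, Control 2, EV 1 and EV 2 against 145, 126, 171 and 205. Ms4a1 was near other B cells too, at 882 to 1187 against 816 to 918, and Pax5 was lower, at 722, 451, 579 and 779 against 936, 948, 891 and 1223. The high range had no Bcl6 or Pax5 UMI. Jchain itself was far above other B cells here, at 489, 585, 800 and 828 CPM in Control 1, Control 2, EV 1 and EV 2 against 1.4 to 4.2, and lower in both Control libraries than in either EV library. Xbp1 ranged from 87.4 to 134 CPM in this range and from 35.7 to 50.8 in other B cells, and in both comparisons the rule fixed the direction. The low range cells were also large, with a median of 26327 UMIs and 58 of 87 above 20000.

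Members took a larger share of the cells in both EV libraries than in both Control libraries. They were 0.0855% of filtered cells in Control 1 (95% exact Clopper-Pearson interval 0.0344 to 0.176%), 0.138% in Control 2 (0.0689 to 0.247%), 0.441% in EV 1 (0.311 to 0.608%) and 0.605% in EV 2 (0.453 to 0.79%). The groups did not overlap. The means were 0.112% ± 0.0371 (SD, n = 2) for Control and 0.523% ± 0.116 (SD, n = 2) for EV, a ratio of 4.68, and the two-sided exact permutation test gave p = 0.333, the smallest that 2 libraries against 2 can give. The intervals cover counting error only. Of B-lineage cells, which are the members and every cell with a Cd79a UMI and no CD3 or Siglech UMI, members were 0.243%, 0.457%, 0.782% and 1.26% in the same order, with means of 0.35% ± 0.151 and 1.02% ± 0.335 (SD, n = 2) and an exact p = 0.333.

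The excess lay in the low range. Cells of the high range were 0.061, 0.0627, 0.0477 and 0.0799% of filtered cells in Control 1, Control 2, EV 1 and EV 2, so that the groups overlapped. Of B-lineage cells, however, the high range made up 0.174, 0.208, 0.0846 and 0.166%, lower in both EV libraries, with means of 0.191% ± 0.0242 for Control and 0.125% ± 0.0575 for EV (SD, n = 2, exact permutation p = 0.333). Cells of the low range were 0.0244, 0.0752, 0.394 and 0.525% of filtered cells, with a mean of 0.0498% ± 0.0359 for Control and 0.459% ± 0.0928 for EV (SD, n = 2). The high range made up 71.4, 45.5, 10.8 and 13.2% of the members in the same order, and any value over all members is weighted by that mix.

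**Figure D3:**
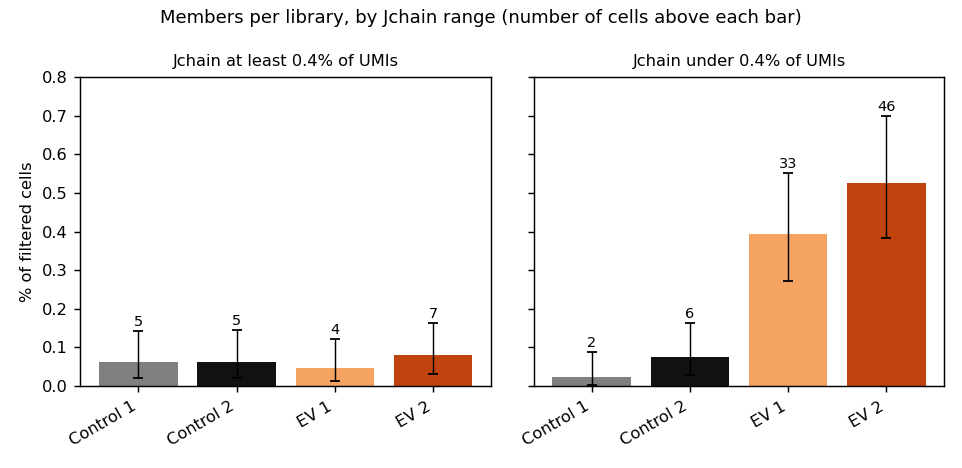
Bars show members as a percentage of filtered cells in each library, with exact 95% binomial intervals and the number of cells above. In the high range (left) each library holds 4 to 7 members, and in the low range (right) Control 1 and 2 hold 2 and 6 members against 33 and 46 for EV 1 and 2.

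The depth of the cells moved with the group. The median member held 9455 UMIs in Control 1, 11189 in Control 2, 29703 in EV 1 and 26189 in EV 2, while the median filtered cell held 5519, 6596.5, 6728.5 and 6725. More than 20000 UMIs, the upper limit of the study's own filter, were held by 2, 3, 24 and 38 members in the same order, so that limit and the one of 5000 genes together removed 67 of the 108 members. Within the study's limits 5, 8, 13 and 15 members remained. As a share of filtered cells within those limits their means were 0.0814% for Control and 0.168% for EV, without overlap (exact permutation p = 0.333). As a share of B-lineage cells the groups overlapped, with means of 0.254% and 0.32% (exact permutation p = 0.667). A threshold on a UMI count admits deep cells more readily, and the part of depth in the excess was not tested. With Jchain required to be at least 0.1% of the cell's UMIs in place of a count, 5, 7, 14 and 21 cells were members. The doublet caller Scrublet marked 0, 0, 0 and 1 of the members.

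The heavy chain constant genes lie side by side on chromosome 12, from Igha at 113254830 to Ighm at 113422730 (GRCm38), and the gene with the most UMIs was taken as a member's isotype. It was Ighm in 58 of 108 members, Ighg1 in 30, Ighg2b in 7, Ighg2c in 6, Ighg3 in 4 and Ighd in 1, with 2 ties. No member was called Igha or Ighe, which allows a share of up to 42.9, 27.3, 8.11 and 5.66% in the 4 libraries. Ighm was the call of 6 of 7, 5 of 11, 16 of 37 and 31 of 53 members, or 85.7, 45.5, 43.2 and 58.5%, and the groups overlapped (exact permutation p = 0.667). An Ighm UMI was also found in 61.6 to 69.9% of T cells, at median depths of 6478 to 8844 UMIs per cell. Summed over T cells, Ighm stood at 165 to 184 CPM and Igkc at 15.1 to 29.2, whereas in other B cells Igkc, at 6270 to 6639, exceeded Ighm, at 1550 to 1843. The source of the Ighm UMIs in T cells was not tested. The isotype calls mostly rest on more than a UMI. At least 10 UMIs lay behind 52 of 58 Ighm calls and 25 of 30 Ighg1 calls. The leading gene held a single UMI in an Ighm call of EV 2 and, in Control 2, in an Ighg2b call and a high range Ighg2c call. In Control 2 the 5 members called Ighm held 6 to 81 Ighm UMIs and the other 6 held 0.

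Ighg1, the constant gene of IgG1, was found in members of the EV libraries alone. It was the call of 0 of 7, 0 of 11, 16 of 37 and 14 of 53 members, or 0, 0, 43.2 and 26.4% (exact permutation p = 0.333). A count of 0 allows a share of up to 42.9% in Control 1 and 27.3% in Control 2, so the small Control groups leave room for some Ighg1 members. By molecules, all Control members together held 0 Ighg1 UMIs of 222726, and the EV members 7835 of 2815104. Against a floor of 3 counts over the Control group, the EV level was 207 times the floor, with 119 times in EV 1 and 274 times in EV 2. That floor covers the counting of UMIs only and not which cells were sampled. With 7 and 11 Control members it is no lower bound on the difference. The size of the level came from few cells. In all, 3 high range members, with 1280 Ighg1 UMIs in EV 1 and 2373 and 3069 in EV 2, held 6722 of the 7835, and the low range stood at 533 CPM in EV 1 and 291 in EV 2. The Control 2 library was not without Ighg1, as its other B cells held 32 Ighg1 UMIs, 27 of them in 1 cell. Cells outside the members were also higher in both EV libraries. An Ighg1 UMI was found in 0.0348, 0.126, 0.685 and 1.57% of other B cells in Control 1, Control 2, EV 1 and EV 2. In T cells it was found in 0, 0.0215, 0.314 and 1.42%, and its source there was not tested. Of the 30 Ighg1 members, 26 were in the low range and all 30 were cycling. In the high range the Control libraries held 6 Ighm, 3 Ighg2c and 1 Ighg2b members, and the EV libraries 4 Ighg1, 3 Ighg2c, 2 Ighg2b, 1 Ighg3 and 1 Ighm.

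**Figure D4:**
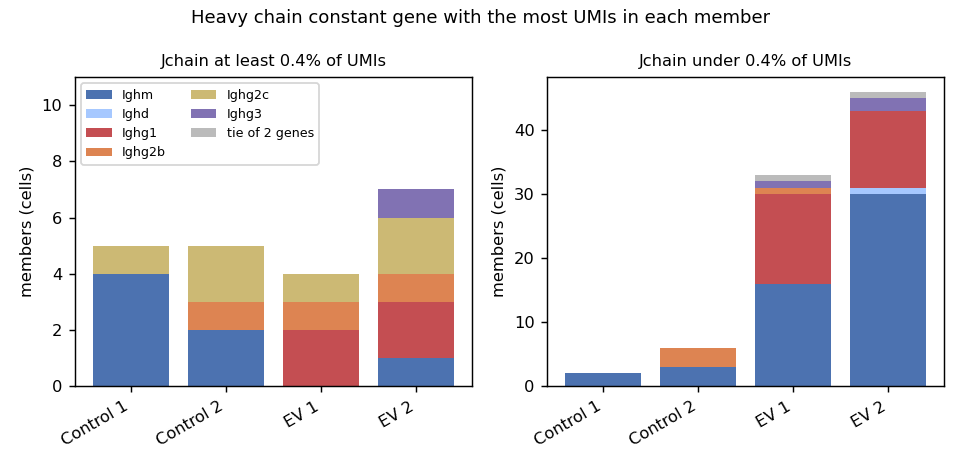
Stacked bars count members by the heavy chain constant gene with the most UMIs, for the high range (left) and the low range (right), whose y axes differ. Ighg1 appears in the EV libraries in both ranges (16 members in EV 1 and 14 in EV 2) and in no Control member.

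A few deep cells decided the immunoglobulin sums of the Control libraries. Of all heavy chain constant UMIs in the members, Ighm made up 99.3% in Control 1, whereas Ighg2b made up 64.8% and Ighg2c 31.8% in Control 2. In Control 2 a single cell held 3083 of the 3135 Ighg2b UMIs and another held 1538 of the 1539 Ighg2c UMIs. Both of these cells had Ighv1-64 as the leading heavy chain variable gene, with 86 and 28 UMIs, and Iglv1 as the leading light chain variable gene, with 895 and 45. A Control 1 member called Ighm, with 6 Ighv1-64 and 27 Iglv1 UMIs, had the same pair. The 3′ reads do not cover the joined region, so a shared pair of variable genes does not show a shared clone. A heavy chain variable gene could be called, with at least 3 UMIs, in 10 members of the high range and 2 of the low range. The 10 high range calls spread over 7 genes. In the high range Igkc exceeded the lambda genes Iglc1, Iglc2 and Iglc3 together in all 21 members, although Iglv1 was the leading light chain variable gene in 9 of the 16 with a call.

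Most members held a UMI of Mki67, the proliferation antigen Ki-67, or of Top2a, a topoisomerase of dividing cells, and such members are called cycling here. For comparison, an Mki67 UMI was found in 1.26 to 2.0% of T cells and 0.523 to 1.03% of other B cells, and a Top2a UMI in 3.41 to 5.26% and 1.85 to 2.82%, at median depths of 6478 to 8844 UMIs in T cells and 4122.5 to 5800.5 in other B cells. Summed, Mki67 stood at 320 to 874 CPM in the members and 1.87 to 4.98 in other B cells. Cycling members were 3 of 7 members in Control 1, 4 of 11 in Control 2, 32 of 37 in EV 1 and 50 of 53 in EV 2, or 42.9, 36.4, 86.5 and 94.3%. With at least 2 UMIs required they were 3, 4, 30 and 46, or 42.9, 36.4, 81.1 and 86.8%. The means were 39.6% ± 4.59 for Control and 90.4% ± 5.55 for EV (SD, n = 2), without overlap (exact permutation p = 0.333). Cycling followed the Jchain range, at 80 of 87 members in the low range and 9 of 21 in the high range. Within the low range 2 of 2, 3 of 6, 30 of 33 and 45 of 46 were cycling. The groups overlapped there through the 2 cells of Control 1. Within the high range 1 of 5, 1 of 5, 2 of 4 and 5 of 7 were. Their means were 20% for Control and 60.7% ± 15.2 for EV (SD, n = 2), without overlap (exact permutation p = 0.333). Of the members with at least 3000 UMIs, which leaves out 9, 3 of 4, 4 of 8, 32 of 36 and 48 of 51 were cycling, or 75, 50, 88.9 and 94.1%, without overlap (exact permutation p = 0.333). When these were thinned to 3000 UMIs each, the shares became 75, 50, 75 and 80.4% and the groups overlapped (exact permutation p = 0.667). The median cycling member held 27494 UMIs and the median non-cycling member 5309.

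Genes were then compared between EV and Control on the summed counts of each library's members. A minimum of 20 members in every library had been set for this test and was not met, so the calls describe sums of 7 and 11 Control cells. Of 6882 genes tested with edgeR's quasi-likelihood test, 90 were called at a Benjamini-Hochberg adjusted p under 0.05, which is 1.31% of the genes, with 14 higher in EV (0.203%) and 76 lower (1.1%). Among the lower are Jchain and Xbp1, which the rule used. With at least 20 Jchain UMIs required of a member, 212 genes were called higher and 194 lower, so the split between the directions also changed. The libraries did not overlap between the groups for 42.9% of all genes tested. Without EV 1, 11 genes were called and without Control 1, 200, and within the study's upper limits on cells 0 were called by edgeR, with 38 at an unadjusted p under 0.05. Secretory genes were among those that fell. Of the 18 plasma cell genes tested 6 fell and 0 rose, of 24 ER translocation genes 6 fell and 0 rose, and of 23 ER folding genes 3 fell and 0 rose, with median log2 fold changes of -1.23, -1.03 and -0.64 beside 0.05 for all genes. Jchain and Xbp1 are left out of the list's number tested, counts and median.

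Ssr4, a subunit of the complex that helps proteins enter the ER, had the lowest p in these lists. The members held 1107, 1154, 217 and 263 CPM after TMM scaling in Control 1, Control 2, EV 1 and EV 2, a log2 fold change of -2.24 ± 0.264 (SE, adjusted p = 0.000317 by edgeR). Sec11c, a subunit of the signal peptidase, fell from 1039 and 1312 to 271 and 319 (log2 -2.0 ± 0.265, adjusted p = 0.000601 by edgeR). Fkbp11, a folding enzyme of secretory cells, fell from 135 and 253 to 29.4 and 22.6 CPM, and Sdc1 from 81.0 and 63.2 to 7.93 and 7.74. Krtcap2 and Spcs3 fell too, as did Mzb1, the p53 target Trp53inp1, the prolyl isomerase gene Ppib, the co-chaperone gene Dnajc3 and the stress gene Herpud1. In the low range alone Ssr4, Spcs3 and Ppib did not fall, as given below. Prdm1 was not called (log2 -1.05 ± 0.757, adjusted p = 0.714 by edgeR).

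Of 6 heavy chain constant genes tested 2 rose, Ighg1 and Ighg3, and 2 fell, Ighm and Ighg2c, and 3 of 4 light chain constant genes fell. Igkc went from 107303 and 95271 CPM to 9713 and 23908 (log2 -2.59 ± 0.317, adjusted p = 0.000399 by edgeR), Iglc2 and Iglc3 fell, and Iglc1 was not called. Ighm was at 45734, 1249, 1097 and 1763 CPM, so that its call came from Control 1, and without that library its log2 fold change was 0.26. Ighg2c was at 175, 12165, 89.7 and 160, where 1 cell of Control 2 carried the level. Ighg3 rose from 54.0 and 0 to 163 and 758 CPM (log2 4.49 ± 0.93, adjusted p = 0.0209 by edgeR), where 1 cell of EV 1 held 198 of 205 Ighg3 UMIs and 1 cell of EV 2 held 1178 of 1272. Ighv1-64 and Iglv1 had the largest falls next to Ighg2c, and both rest on the cells described above. Chst1 and Prg2, which completed the 5 largest falls, rest on few molecules, with 8 and 3 Chst1 UMIs and 12 and 4 Prg2 UMIs in Control 1 and Control 2.

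Among the 14 genes that rose, besides Ighg1 and Ighg3, the largest rises were Gm42047, the DNA repair enzyme gene Apex1 (0 and 7.9 to 76.2 and 78.6 CPM) and Phtf2, where the members of a Control library held at most 1 UMI of each gene. Of 28 cell cycle genes 1 rose, which was Mcm4, part of the replicative helicase, from 40.5 and 7.9 to 127 and 129 CPM. Of 12 heat shock genes 4 rose and 0 fell. Hspd1, the mitochondrial chaperonin, went from 40.5 and 111 to 433 and 310 CPM (log2 2.16 ± 0.41, adjusted p = 0.0139 by edgeR), and its partner Hspe1, Hspa8 and Hsp90ab1 rose by log2 1.71, 1.27 and 1.19. Other B cells were higher in both EV libraries too, with Hspa8 at 413 and 460 CPM in Control and 988 and 1053 in EV, Hsp90ab1 at 772 and 887 against 1212 and 1294, Hspd1 at 74.7 and 77.5 against 121 and 123, and the summed heat shock list at 2111 and 2357 against 3711 and 3915. Of 8 interferon genes tested 1 rose, Ifi27l2a. In other B cells Ifi27l2a stood at 296 and 345 CPM in Control and 634 and 503 in EV. Of 10 early response genes 1 fell, Jun, whose direction turned in the low range alone, as given below.

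**Figure D5:**
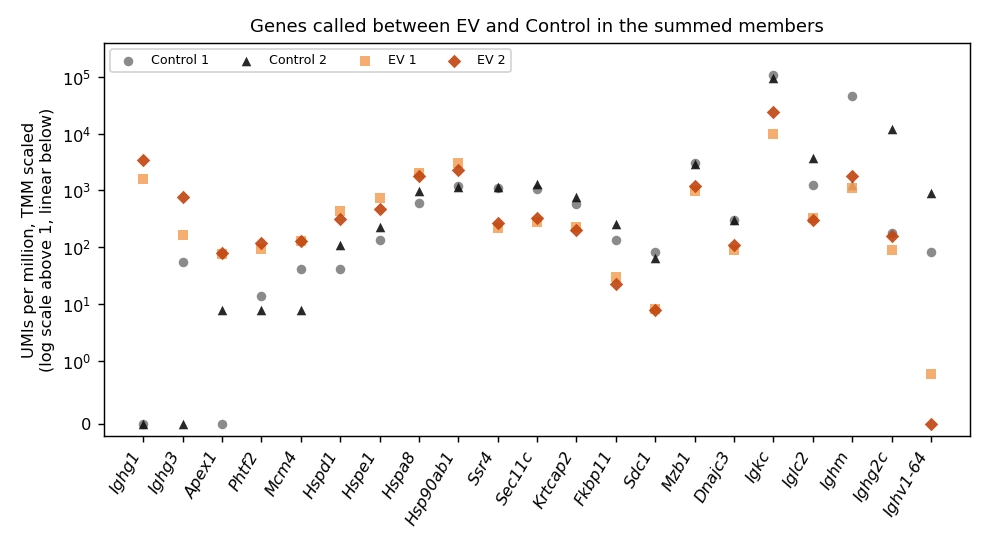
Levels of 21 genes called between EV and Control, in CPM of the summed members after TMM scaling, on a scale that is logarithmic above 1 and linear below, with 1 point per library. Chaperones of the heat shock list lie higher in both EV libraries, and secretory and kappa light chain genes lie higher in both Control libraries.

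Cdk8, a kinase of the Mediator complex, fell in the members from 499 and 411 to 125 and 61.9 CPM (log2 -2.28 ± 0.348, adjusted p = 0.00231 by edgeR). Cdk8 and Cmss1 are protein-coding genes that were placed in the list named for abundant nuclear or rRNA-like transcripts. Of the 8 genes in that list 5 fell, Cdk8 included, and 0 rose. Gm42418, an rRNA-like transcript, went from 5859 and 9224 to 2571 and 585 CPM, and Cmss1 from 1755 and 1905 to 533 and 110. Other B cells showed the same order, with Cdk8 at 730, 415, 252 and 89.0 and Gm42418 at 8373, 9591, 5552 and 855 CPM. Whether these transcripts took part in the Cdk8 difference was not tested.

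The 2 ranges were also fitted separately, and the cause of the difference from the calls over all members was not tested. In the high range alone, with sums of 5, 5, 4 and 7 cells, 0 of 1303 genes were called by edgeR and 69 had an unadjusted p under 0.05. In the low range alone, which sets 2 and 6 Control cells against 33 and 46, 17 of 6724 genes were called (0.253%). Of these, 5 were higher and 12 lower in EV, and 7 were among the 90. Igkc, Ssr4 and Ppib did not fall in the low range, with log2 fold changes of 0.17, 0.80 and 0.19, and neither did Spcs3 and Jun. In contrast, Cdk8 (-2.22), Hspd1 (2.14) and Ighg1 remained called. The low range calls named here from beyond the rule for naming were chosen after their values were seen. Calr, the ER chaperone calreticulin, held 4, 11, 382 and 547 UMIs and rose by log2 1.75. Npm1, a nucleolar protein of growing cells, rose by log2 1.47. The histone gene Hist1h4c fell by 3.11 on the log2 scale, on 4, 10, 18 and 11 UMIs in Control 1, Control 2, EV 1 and EV 2.

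A test of the difference itself compared the EV effect in members with that in other B cells, over 8 sums with the library as a block. edgeR called 162 of 12029 genes (1.35%), with 56 higher (0.466%) and 106 lower (0.881%) in the members. The split turned with the scaling, to 218 higher and 80 lower with library sizes free of immunoglobulin genes and Jchain. Without EV 1, 15 genes were called, without EV 2, 32, and without Control 2, 259, of which 200 were higher. Of the plasma cell list, without Jchain and Xbp1, 9 of 19 were lower and 0 higher, and of ER translocation genes 11 of 24 were lower and 0 higher. Of mature B cell genes 3 of 22 were higher. This model gives the sums of members and the far larger sums of other B cells the same spread. When the difference between members and other B cells was taken within each library and compared over the 4 libraries with limma, 0 genes were called and 2313 had an unadjusted p under 0.05.

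Cycling and non-cycling members were compared within libraries. Of 881 genes tested by edgeR with the library as a block, 25 were called (2.84%), 5 higher in cycling members (0.568%) and 20 lower (2.27%), with Mki67 and Top2a, which define the split, among the higher. Smc4, a condensin subunit that packs chromosomes, was 3.43 ± 0.598 higher on the log2 scale (adjusted p = 0.0219 by edgeR). It was followed by Kcnq5, a potassium channel gene, and the histone gene H2afz. Of the cell cycle list, without Mki67 and Top2a, 8 genes were tested and 0 were called. Their median log2 fold change was 1.80, beside 0.073 for all genes. Of the secretory lists few genes were called and all of those were lower, with 2 of 10 plasma cell genes (Ly6c2 and Mzb1), 2 of 13 ER folding genes (Manf and Ppib) and 2 of 17 ER translocation genes (Ssr4, at log2 -3.09, and Spcs1). Of 4 light chain constant genes 2 were lower, Igkc at log2 -3.32 and Iglc2. Slpi, a protease inhibitor outside these lists, was lower (log2 -3.01), and Iglv1, Ighg2b, Ifi27l2a and Ly6a were lower too. The split followed the Jchain range, since 80 of 89 cycling members and 7 of 19 non-cycling members were in the low range, and the part of the range in these calls was not tested. Without single libraries 8 to 16 genes were called, with 8 without EV 2, 9 without Control 1, 12 without Control 2 and 16 without EV 1. With each cell thinned to 3000 UMIs, 0 of 153 genes were called by edgeR and 18 had an unadjusted p under 0.05, and cycling members were the deeper ones, as given above.

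Markers of most other cell types were scarce in the members. Of 10 T cell markers, 3 of which the rule set to 0, 10, 8, 4 and 4 had no UMI in the members of the 4 libraries, and their summed level was 0, 13.9, 20.3 and 25.2 CPM, led in the EV libraries by Lck. The same list stood at 31.3 to 43.7 in other B cells. Macrophage markers summed to 4.07 to 20.8 CPM in the members and 35.0 to 137 in other B cells. Neutrophil, natural killer and erythroid markers were at 0 in both Control libraries and at or below 3.25 CPM in the EV libraries. A count of 0 over the members of both Control libraries together still allows up to 13.5 CPM, and more in a single library. The Control zeros, that of the T cell markers in Control 1 included, therefore bound these levels only loosely. Of the markers of plasmacytoid dendritic cells, which also express Jchain, 4, 4, 4 and 3 of 6 were at 0, with Siglech fixed at 0 by the rule, and Ly6d and Tcf4, which B cells also express, gave most of the signal. Of 5 markers of conventional dendritic cells only Flt3 exceeded 2 CPM in the members, at 38.0, 48.7, 53.7 and 56.1, above the 19.0, 13.9, 10.4 and 12.7 of other B cells, and its part in the results was not tested. In the low range Flt3 stood at 59.9 to 85.4 CPM. Between 11 and 25 cell barcodes were shared by any 2 libraries, and none of them was a member's.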

How the data were processed

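Raw UMI counts per gene and cell were deposited by the authors as 1 matrix per library, made with Cell Ranger 7.1.0 on mm10 per the labels. They held 32285 genes and 34323 cell barcodes, and 33310 cells passed at least 200 genes and under 10% mitochondrial UMIs. The study's upper limits (5000 genes, 20000 UMIs, 60% ribosomal) were an alternative, since they remove deep members. Doublets were marked with Scrublet (scanpy 1.11.5, expected rate 6%) and kept. Counts were summed per library and tested with edgeR 4.0.16 (quasi-likelihood, TMM, filterByExpr, Benjamini-Hochberg 0.05). DESeq2 1.42.0 and limma 3.58.1 were alternatives, and the code was tested on simulated data. Single values were compared with two-sided exact permutation tests over the 4 libraries (scipy 1.17.1), which cannot give a p under 0.33. Intervals are exact Clopper-Pearson at 95%, the limit for a count of 0 is 3 counts, and both cover counting error only. The labels name 2 replicates per group without the number of animals, so p-values measure the spread between these libraries. T cells were cells with at least 3 CD3 UMIs and no Cd79a UMI. The members and the 22 gene lists (276 genes, 275 in the files) were chosen with earlier results of these data known. Genes were named as the 5 largest rises and falls among called genes whose libraries did not overlap, up to 4 called genes per list, and the markers and immunoglobulin constant genes. The planned comparison of isotypes was not run, because not every library held 10 members of each. A gene of the germinal centre list is not reported here.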

Additional observations from a re-analysis of the deposited data

Results flagged for a closer look

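The EV effect differed between members and other B cells for 162 genes by edgeR's interaction test, at a Benjamini-Hochberg adjusted p under 0.05, and for 0 genes by limma on the within-library differences, where 2313 had an unadjusted p under 0.05. Of the named genes, the log2 EV effect in members exceeded that in other B cells by 16.64 for Ighg1, 4.46 for Ighg3, 4.05 for Apex1 and 3.56 for Phtf2. The Control members of a library held 0 UMIs of Ighg1, at most 1 of Apex1 and 1 of Phtf2, so the size of these differences depends on the prior count of the fit and is no bound. The Ighg3 value rests on 1 cell of each EV library, with 198 of the 205 Ighg3 UMIs of EV 1 and 1178 of the 1272 of EV 2. The difference was -9.49 for Ighv1-64, -4.85 for Ighg2c and -3.32 for Iglv1. The Ighv1-64 value also depends on the prior count, with 1 and 0 UMIs in the members of EV 1 and EV 2. In Control 2, 2 cells held 86 and 28 of the members' 115 Ighv1-64 UMIs and 895 and 45 of their 947 Iglv1 UMIs, and the second of them held 1538 of the 1539 Ighg2c UMIs.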

How the results depend on the processing

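The excess of members among filtered cells, EV minus Control, was 0.411 percentage points, and it was 0.0861 under the study's limits on cells, 0.23 with at least 20 Jchain UMIs, 0.129 with Jchain at 0.1% of UMIs, 0.195 with at least 3 Xbp1 UMIs and 0.00193 in the high Jchain range, the last chosen after seeing the data. Leaving out each library gave 0.33 to 0.493. Among B-lineage cells the excess was 0.669, and 0.0664 under the study's limits, 0.165 with Jchain at 0.1%, 0.322 with 3 Xbp1 UMIs and -0.0655 in the high range, with 0.432 to 0.906 without single libraries. The excess of cycling members, 50.8 points, was 44.3 with 2 UMIs required, 57.4 and 59.4 with 10 and 20 Jchain UMIs, 40.3 with 3 Xbp1 UMIs, 40.7 and 19.4 in the high and low ranges, 29.0 among members of at least 3000 UMIs before thinning (an alternative chosen after seeing the data) and 15.2 after thinning them to 3000, and 46.9 to 54.7 without single libraries. The Ighm difference of -14.7 points was -52.9 in the high range and -34.8 to 5.41 without single libraries. The Ighg1 difference of 34.8 was 26.4 to 43.2 without single libraries. With 2 times the UMIs of the next gene required, 16 members of EV 1, 11 of EV 2 and 0 of either Control library were called Ighg1. After thinning to 3000 UMIs, Ighg1 was the call of 44.4% of members in EV 1, 15.7% in EV 2 and 0% in either Control library.

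The 90 genes called between EV and Control became 406 with 20 Jchain UMIs (212 higher and 194 lower, against 14 and 76), 158 without the filter on low counts, 26 in cycling members, 17 in the low range, 2 after thinning, and 0 in the high range, in non-cycling members (371 genes tested, 7 with an unadjusted p under 0.05 by edgeR) and under the study's limits, where fewer genes were tested. Single libraries left out gave 11 to 200, and DESeq2 called 65 of 5814. The interaction calls, 162, became 298 with library sizes free of immunoglobulin genes and Jchain, which turned 56 higher and 106 lower into 218 and 80, 6 after thinning, 0 by limma (2313 with an unadjusted p under 0.05), and 15 to 259 without single libraries. The 25 calls between cycling and non-cycling members became 89 without the filter, 0 after thinning (18 of 153 genes with an unadjusted p under 0.05 by edgeR) and 8 to 16 without single libraries.

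Signs turned for Ighg2c in non-cycling members (3.62) and under the study's limits (2.10), Iglv1 under those limits (1.77), Ppib (0.19), Ssr4 (0.80), Spcs3 (0.26), Jun (1.66) and Igkc (0.17) in the low range, and Prdm1 in the high range (0.87), all as log2 fold changes. Without single Control libraries Ighm ranged from -4.90 to 0.26 and Prdm1 from -1.50 to 0.75. The cause was not tested. Of the alternatives for named genes, 443 kept direction and side of the threshold, 267 kept direction only, 1 gained a call and 11 turned sign. With the replicate number as a block, 110 genes were called. The labels give same-numbered libraries a common number, and whether they were handled together was not given in the sources used here. The correlation of their deviations was -0.011 in members and 0.166 in all filtered cells.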
